A study of Glycine max with 72 samples.

Results

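The GDPD1 gene pair of soybean, Glyma.16G052000 and Glyma.19G098500, was followed in germinating seeds of low phytic acid (lpa) and normal phytic acid lines. The members were taken by their gene identifiers, 2 of the 56044 genes counted in each library, and no measured value entered the choice. The study itself singled out both genes on these same libraries, so a difference between lpa and normal lines seen here is not independent evidence of its direction. Messenger RNA was sequenced from 8 lines, each as dry seeds (stage 1), after 8 h of imbibition (stage 2) and once the radicle had emerged (stage 3), with 3 replicates of 10 seeds each and 72 libraries in all. In the Mips subset, 1mlpa (genotype mips1) was compared with 1MWT (MIPS1). The MRP subset holds 4 near isogenic lines, 2mlpa (mrp-l and mrp-n mutated), 2MWT-N (mrp-l mutated), 2MWT-L (mrp-n mutated) and 2MWT (no mutation), and the last 3 of these have normal phytic acid. The Mips-MRP subset compares 3mlpa (mips1, mrp-l and mrp-n mutated) with 3MWT (no mutation). The Mips lines and the other lines come from different crosses that have a parent in common. Each genotype is 1 line, so the mutations cannot be told apart from other differences between sister lines. For the Mips subset, samples were placed by the MIPS1 genotype in their labels, while their titles abbreviate names that may be those of the cultivars crossed. Seed coats and radicles were removed at stages 2 and 3 but not at stage 1, so a change from stage 1 also compares whole seeds with seeds lacking the coat and the radicle. Handling differed as well. Per the study's methods, dry seeds were milled. Seeds of stages 2 and 3 were sterilized, washed and left to dry overnight before germination, and their tissue was ground by mortar in liquid nitrogen.

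Phytic acid is the main phosphorus store of the seed. MIPS1 encodes myo-inositol-3-phosphate synthase, the enzyme of the first step toward phytic acid, and MRP-L and MRP-N encode ATP-binding cassette transporters that move phytic acid into storage. Glycerophosphodiester phosphodiesterases split glycerophosphodiesters, the products left when phospholipids lose their fatty acids, into glycerol-3-phosphate and a free alcohol such as choline. The reaction is a step in the recovery of phosphate from membrane lipids. In Arabidopsis the plastid enzyme AtGDPD1 is induced when phosphate is scarce, and the 2 soybean genes carry its name.

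In the Wm82.a2.v1 annotation of the count tables, Glyma.16G052000 lies at chr16:5010554-5013418 on the minus strand, with 6 exon blocks of 1835 bases in all. Glyma.19G098500 lies at chr19:34393327-34396049, also on the minus strand, with 7 exon blocks of 1406 bases in all. The genes share 3 neighbouring exon blocks of the same lengths, 279, 60 and 182 bases, and neither overlaps another annotated gene. Read pairs that fit several places in the genome were not counted, so pairs from stretches that the paralogs have in common may be missing from both. Glyma.19G098500 is 8.57 Mb from MRP-L (Glyma.19G169000) on the same chromosome. Of the 23 genes within 250 kb of Glyma.19G098500, 10 were tested, and in a comparison of an lpa line with a normal line 0 of them were called lower and 0 to 1 higher. Around Glyma.16G052000, 30 to 32 of 44 such genes were tested, of which 0 to 2 were called lower and 0 to 4 higher.

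The total counted per library lay between 20295984 and 39759526 in 71 libraries, with a median of 28412327. Replicate 1 of 2MWT-N at stage 2 held only 12679 counts and none of either GDPD1 gene. It was left out of the levels given here and kept in the fits, where leaving it out moved none of the counts of calls. At the usual depth a library held 19 to 808 read pairs of Glyma.16G052000 and 121 to 7351 of Glyma.19G098500, so the first gene carries more counting error. Replicates of 1 group had r between 0.934 and 0.996 on the log scale across all genes, and the lowest value joined replicates 2 and 3 of 3mlpa at stage 1. Replicate 2 of 3MWT at stage 1 showed counts in 24686 genes, against 30065 or more in every other library of usual depth.

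Both genes were most abundant in dry seeds of 2MWT, and their lowest levels were in lpa seeds with an emerged radicle. Glyma.16G052000 averaged 0.681 ± 0.163 CPM (read count scaled to library size, SD, n = 3) in 1mlpa at stage 3 and 30.8 ± 8.18 CPM in 2MWT at stage 1, a span of 45.3-fold over the 24 combinations of line and stage. Glyma.19G098500 averaged 4.49 ± 0.697 CPM in 2mlpa at stage 3 and 232 ± 53.7 CPM in 2MWT at stage 1, a span of 51.6-fold. Within the 9 groups of lpa seeds the span was 13.8-fold for Glyma.16G052000 and 14.0-fold for Glyma.19G098500. Within the 15 groups of normal seeds it was 22.3-fold for Glyma.16G052000 and 6.69-fold for Glyma.19G098500, so among normal lines the chromosome 19 gene varied over the narrower span.

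The MRP lines stand in a count table of their own, so an order or span over all lines also compares the tables. A difference between the tables was not tested. The order of the lines differed between stages. In dry seeds the MRP lines with normal phytic acid led for both genes, Glyma.16G052000 in the order 2MWT, 2MWT-L, 2MWT-N, 3mlpa, 1MWT, 2mlpa, 3MWT and 1mlpa. Replicates of neighbours in this order overlapped except between 2MWT-L and 2MWT-N and between 3MWT and 1mlpa. For Glyma.19G098500 at stage 1 the order was 2MWT, 2MWT-L, 2MWT-N, 2mlpa, 3MWT, 1MWT, 3mlpa and 1mlpa, and neighbours overlapped from 2MWT-N downward. At stage 2 the 3 lpa lines held the 3 lowest places for both genes, and a gap in the replicates separated them from the normal lines. At stage 3 the same was so for Glyma.19G098500, while for Glyma.16G052000 the line 2mlpa stood above 1MWT.

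**Figure D1:**
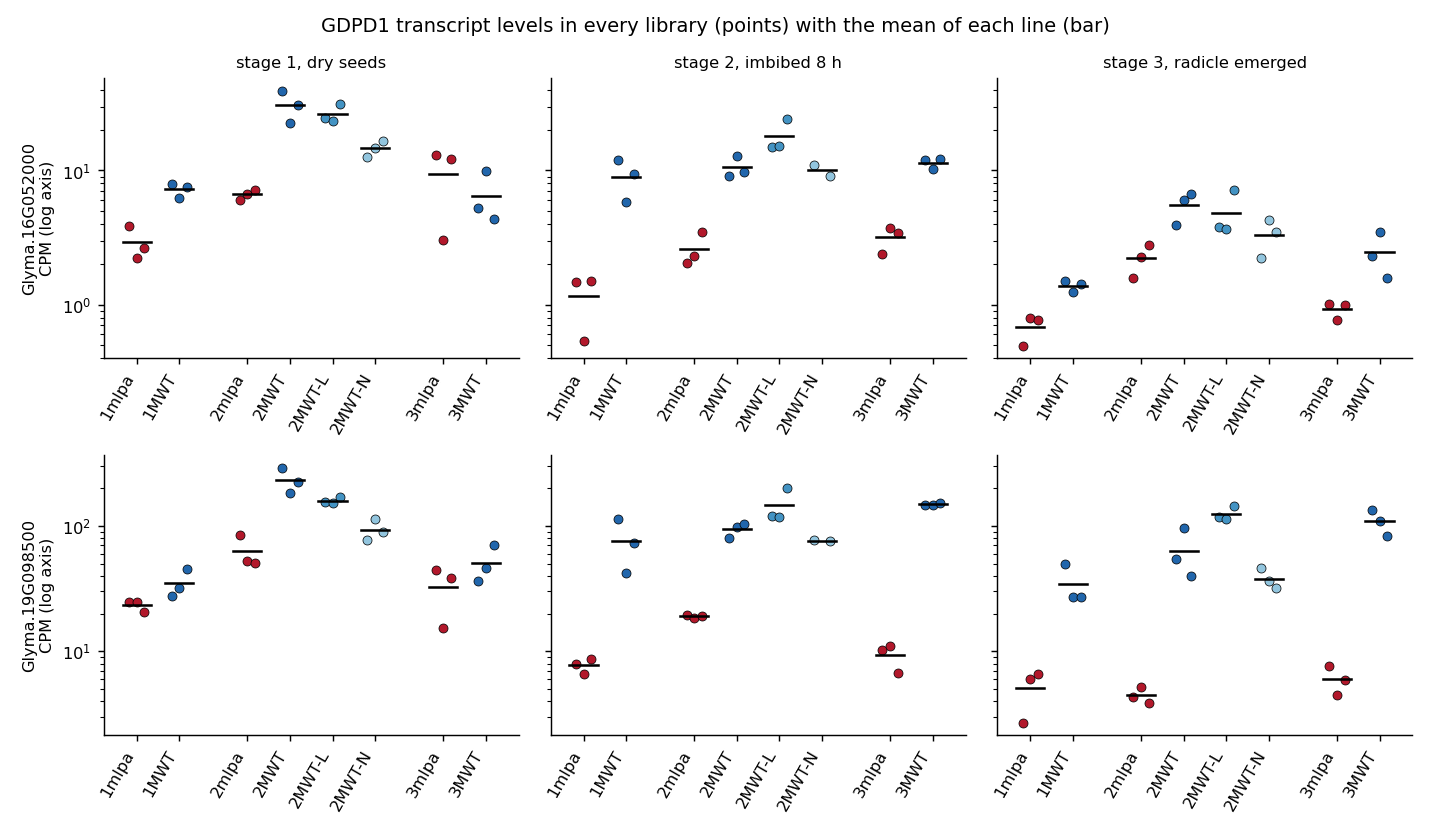
CPM of Glyma.16G052000 (upper row) and Glyma.19G098500 (lower row) on a log axis in each library (points) with the mean of the line (bar), by line and stage, lpa lines in red and normal lines in blue shades. At stage 2 the red points lie below the blue ones for both genes. At stage 3 the Glyma.16G052000 points of 2mlpa reach into those of its normal lines.

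The question in the Mips subset was how seeds with the mips1 mutation differ from seeds without it. Both genes fell in imbibed 1mlpa seeds, by 7.72-fold for Glyma.16G052000 and 9.78-fold for Glyma.19G098500. In dry seeds the call was made for Glyma.16G052000 alone, and after radicle emergence for Glyma.19G098500 alone. In all, 4 of 6 cases (2 genes at 3 stages) were called lower and 0 higher, where a call needs, in edgeR's quasi-likelihood test, a false discovery rate (FDR) under 0.01 together with a change of more than 1 on the log2 scale. Over all genes tested, 4.03% were called lower at stage 1, 1.57% at stage 2 and 0.641% at stage 3. RNA of whole seed tissue cannot tell fewer cells that express a gene from less RNA of it per cell.

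In dry seeds, Glyma.16G052000 was at 3.85, 2.21 and 2.66 CPM in 1mlpa, against 7.92, 6.27 and 7.48 CPM in 1MWT. At stage 2 it was at 1.46, 0.537 and 1.49 CPM in 1mlpa, against 11.9, 5.77 and 9.40 CPM in 1MWT. After radicle emergence it was at 0.493, 0.787 and 0.763 CPM in 1mlpa and at 1.497, 1.24 and 1.42 CPM in 1MWT. At each stage the 3 libraries of 1mlpa lay below the 3 of 1MWT. Of all genes tested, 13.5% showed such a gap downward at stage 1, 17% at stage 2 and 26% at stage 3. Its log2 fold change between the lines was -1.37 (SE 0.34, FDR 0.0076) at stage 1, -2.95 (SE 0.34, FDR 5.9e-05) at stage 2 and -1.01 (SE 0.35, FDR 0.067) at stage 3. The call at stage 1 stayed in 7 of the 18 fits that leave out 1 library, and was lost, for example, without replicate 2 of 1mlpa at stage 1 (FDR 0.041) and in a fit of the 6 libraries of that stage alone (FDR 0.0233).

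The paralog Glyma.19G098500 was at 24.8, 24.8 and 20.4 CPM in dry 1mlpa seeds and at 27.6, 31.8 and 44.9 CPM in 1MWT, again without overlap. At stage 2 it was at 7.90, 6.64 and 8.70 CPM in 1mlpa, against 114, 42.2 and 72.5 CPM in 1MWT. At stage 3 it was at 2.71, 6.05 and 6.66 CPM in 1mlpa, against 49.7, 27.01 and 27.3 CPM in 1MWT. The gap between the lines was thus wide at both later stages, although the 1MWT libraries themselves spread widely at stage 2. For this gene the log2 fold change was -0.61 (SE 0.34, FDR 0.21) at stage 1, -3.29 (SE 0.37, FDR 4.0e-05) at stage 2 and -2.74 (SE 0.36, FDR 7.6e-05) at stage 3.

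The MRP subset asks what the mrp-l and mrp-n mutations do together and apart. With both mutations, in 2mlpa, both genes fell at stage 2 against each of the 3 normal lines, by 3.87-fold to 7.79-fold. In addition Glyma.16G052000 fell against all 3 lines in dry seeds and Glyma.19G098500 after radicle emergence. These are 4 of 6 cases called lower against all 3 normal lines at the same stage, and 0 were called higher. Over all genes tested, 0.175% were called lower in this sense at stage 1, 0.204% at stage 2 and 0.0957% after radicle emergence. The 3 comparisons share the 2mlpa libraries, so they are not independent of each other.

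In dry seeds, Glyma.16G052000 was at 5.98, 6.71 and 7.202 CPM in 2mlpa. It was at 12.7, 14.7 and 16.5 CPM in 2MWT-N, at 24.5, 23.4 and 31.3 CPM in 2MWT-L and at 39.1, 22.7 and 30.8 CPM in 2MWT. The 2mlpa libraries lay below all 9 normal ones, a gap that 12.7% of the genes tested showed downward against 2MWT-N, 15.1% against 2MWT-L and 9.44% against 2MWT. The difference on the log2 scale was -1.18 (SE 0.28, FDR 0.0075) against 2MWT-N, -2.04 (SE 0.28, FDR 1.4e-05) against 2MWT-L and -2.24 (SE 0.29, FDR 6.8e-06) against 2MWT. The call against 2MWT-N was kept in 31 of the 36 fits that leave out 1 library (FDR 0.052 without replicate 1 of 2mlpa at stage 1). It was not made by DESeq2 (adjusted p = 0.0186), which made it once the near-empty library was left out (adjusted p = 0.0026). With RLE factors the call was made with that library (FDR 0.0082) and not made without it (FDR 0.011).

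Dry 2mlpa seeds held Glyma.19G098500 at 84.9, 53.0 and 50.4 CPM, and replicate 1 overlapped with 2MWT-N. The gene was at 76.7, 113 and 89.8 CPM in 2MWT-N, at 156, 152 and 169 CPM in 2MWT-L and at 289, 183 and 222 CPM in 2MWT. The log2 fold change of this gene was -0.62 (SE 0.26, FDR 0.12) against 2MWT-N, -1.39 (SE 0.26, FDR 0.00039) against 2MWT-L and -1.91 (SE 0.26, FDR 2.1e-05) against 2MWT, so the difference from 2MWT-N did not pass the test.

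In imbibed seeds the 2mlpa libraries of both genes lay below all 8 normal libraries of usual depth. Glyma.16G052000 was at 2.05, 2.29 and 3.49 CPM in 2mlpa, against 11.1 and 9.05 CPM in 2MWT-N, 14.998, 15.1 and 24.01 CPM in 2MWT-L and 9.15, 12.8 and 9.76 CPM in 2MWT. A gap of this kind was shown by 21.4% of the genes tested against 2MWT-N, 21.2% against 2MWT-L and 20.2% against 2MWT. The log2 fold change was -1.95 against 2MWT-N (SE 0.31, FDR 0.00022), -2.81 against 2MWT-L (SE 0.29, FDR 8.2e-08) and -2.04 against 2MWT (SE 0.29, FDR 2.8e-05). The call against 2MWT-N rests on 2 libraries of usual depth and was lost without replicate 2 of 2MWT-N (FDR 0.018), which leaves 1 of them beside the near-empty one.

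Imbibed 2mlpa seeds held Glyma.19G098500 at 19.6, 18.5 and 19.1 CPM, close to each other. The gene was at 76.5 and 75.2 CPM in 2MWT-N, at 120.04, 119 and 199 CPM in 2MWT-L and at 79.9, 98.3 and 103 CPM in 2MWT. The log2 fold change was -1.98 (SE 0.28, FDR 4.0e-05) against 2MWT-N, -2.96 (SE 0.27, FDR 5.7e-09) against 2MWT-L and -2.33 (SE 0.27, FDR 6.9e-07) against 2MWT.

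After radicle emergence the paralogs parted. Glyma.16G052000 was at 1.59, 2.28 and 2.77 CPM in 2mlpa, against 2.23, 4.29 and 3.45 CPM in 2MWT-N, 3.78, 3.68 and 7.10 CPM in 2MWT-L and 3.95, 6.02 and 6.63 CPM in 2MWT. Replicate 1 of 2mlpa lay below all 9 normal libraries and the other replicates did not. Its log2 fold change was -0.58 (SE 0.29, FDR 0.46) against 2MWT-N, -1.12 (SE 0.28, FDR 0.013) against 2MWT-L and -1.32 (SE 0.28, FDR 0.0043) against 2MWT. Against 2MWT the call was kept in 31 of 36 fits that leave out 1 library (FDR 0.028 without replicate 2 of 2MWT at stage 3), and was made neither in a fit of the 6 libraries alone (FDR 0.0548) nor by DESeq2 (adjusted p = 0.0184), which made it once the near-empty library was left out (adjusted p = 0.00084). Against 2MWT-L a call was made by DESeq2 without that library (adjusted p = 0.0067), without the filter on low counts (FDR 0.0070) and with the replicate number as a block (FDR 0.0051).

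At that stage Glyma.19G098500 was at 4.36, 5.24 and 3.86 CPM in 2mlpa, against 46.0, 36.3 and 31.99 CPM in 2MWT-N, 118, 112 and 145 CPM in 2MWT-L and 54.3, 95.6 and 39.5 CPM in 2MWT. The 3 libraries of 2mlpa lay far below the 9 normal ones, and 7.31% of the genes tested lay below 2MWT-N without overlap, 19.2% below 2MWT-L and 13.2% below 2MWT. The log2 fold change was -3.07 (SE 0.28, FDR 3.9e-09) against 2MWT-N, -4.79 (SE 0.30, FDR 5.0e-13) against 2MWT-L and -3.81 (SE 0.29, FDR 6.2e-11) against 2MWT, which is 8.41-fold, 27.6-fold and 14.1-fold lower.

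In the lines with 1 mrp mutation, 1 of 12 cases (2 genes, 2 lines and 3 stages) was called against 2MWT, Glyma.19G098500 lower in dry 2MWT-N seeds (log2 fold change -1.29, SE 0.26, FDR 0.0026), against 0.717% of all genes called lower in that comparison. Both lines were compared with the same 2MWT libraries. In the same seeds Glyma.16G052000 had a log2 fold change of -1.06 (SE 0.27, FDR 0.016), called with RLE factors (FDR 0.0080) and without replicate 2 of 2MWT at stage 1 (FDR 0.0069). With the near-empty library left out, RLE factors did not give this call (FDR 0.014), while DESeq2 did (adjusted p = 0.0037). The single call, of Glyma.19G098500, was lost without replicate 1 of 2MWT at stage 1, or without replicate 1 or replicate 3 of 2MWT-N at stage 1. The largest positive value, 0.97 (SE 0.26, FDR 0.030), was that of Glyma.19G098500 in 2MWT-L at stage 3, which was called without replicate 2 of 2MWT at that stage (log2 fold change 1.41, FDR 0.0030).

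The 4 lines form a 2 by 2 design, in which the interaction asks whether the change with mrp-n differs between seeds that also carry mrp-l and seeds that do not. It was negative and called (FDR under 0.01) in 3 of 6 cases. For Glyma.16G052000 the interaction on the log2 scale was -0.98 (SE 0.39, FDR 0.095) at stage 1, -2.72 (SE 0.41, FDR 1.0e-04) at stage 2 and -0.38 (SE 0.39, FDR 0.77) at stage 3. For Glyma.19G098500 it was -0.10 (SE 0.36, FDR 0.91) at stage 1, -2.61 (SE 0.38, FDR 5.8e-05) at stage 2 and -4.05 (SE 0.38, FDR 5.4e-09) at stage 3. A negative interaction was called in 1.99% of all genes tested in dry seeds, 0.325% in imbibed seeds and 0.172% after radicle emergence. The 3 calls stayed in each of the 36 fits that leave out 1 library. In imbibed seeds, then, both genes were lower with both mutations than the changes with either mutation add up to, and after radicle emergence the test passed for the chromosome 19 gene alone.

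**Figure D2:**
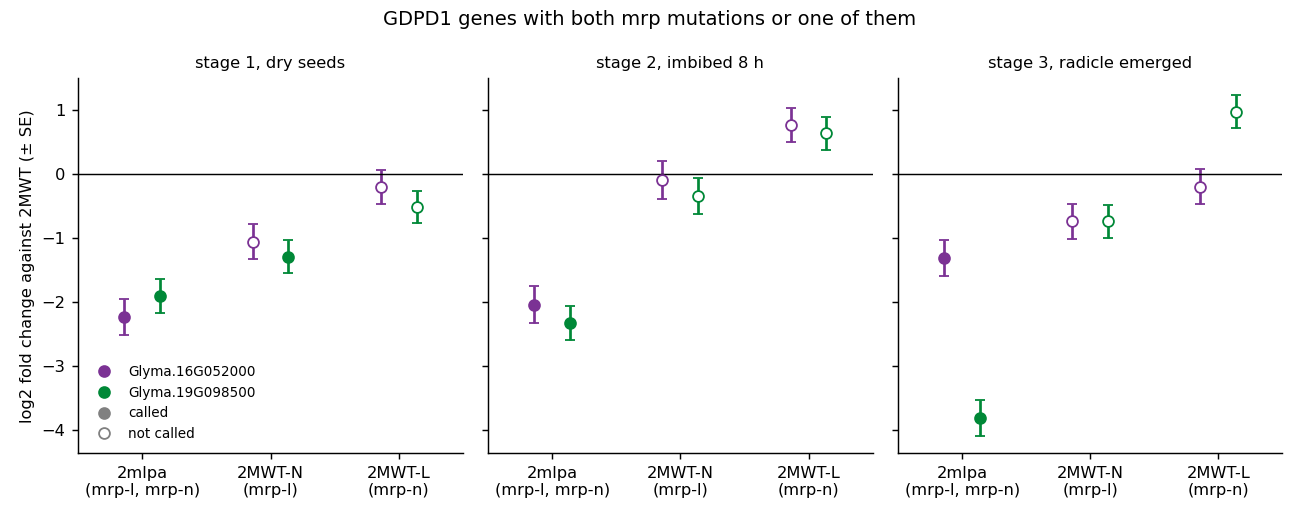
Log2 fold change against 2MWT (± SE) for 2mlpa, 2MWT-N and 2MWT-L at each stage, with Glyma.16G052000 in purple, Glyma.19G098500 in green and filled points where the call was made. At stage 2 the values of both genes are -2.04 and -2.33 in 2mlpa and lie between -0.35 and 0.77 in the lines with 1 mutation.

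The Mips-MRP subset compares seeds with all 3 mutations with seeds that have none. Glyma.19G098500 fell in 3mlpa by 15.96-fold at stage 2 and by 17.96-fold at stage 3. No call was made for Glyma.16G052000, so 2 of 6 cases were called lower and 0 higher. Of all genes tested, 1.17% were called lower at stage 1, 0.425% at stage 2 and 0.754% at stage 3.

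Dry 3mlpa seeds held Glyma.19G098500 at 44.8, 15.3 and 38.5 CPM, overlapping with 36.2, 46.3 and 70.6 CPM in 3MWT. At stage 2 it was at 10.2, 11.02 and 6.75 CPM in 3mlpa, against 146, 147 and 153 CPM in 3MWT. At stage 3 it was at 7.67, 4.46 and 5.96 CPM in 3mlpa, against 133, 109.5 and 83.0 CPM in 3MWT. The groups were thus far apart at both later stages and overlapped in dry seeds. On the log2 scale the difference was -0.64 (SE 0.34, FDR 0.21) at stage 1, -4.00 (SE 0.38, FDR 6.1e-06) at stage 2 and -4.17 (SE 0.38, FDR 1.5e-06) at stage 3.

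For Glyma.16G052000 the dry 3mlpa seeds spread widely, at 13.1, 3.03 and 12.1 CPM, against 5.29, 9.88 and 4.34 CPM in 3MWT. At stage 2 it was at 2.37, 3.71 and 3.42 CPM in 3mlpa, against 11.95, 10.2 and 12.2 CPM in 3MWT. After radicle emergence it was at 1.00, 0.761 and 0.997 CPM in 3mlpa, against 2.31, 3.48 and 1.57 CPM in 3MWT. The 3 libraries of 3mlpa lay below the 3 of 3MWT at both later stages, as did 18.3% of the genes tested at stage 2 and 22.5% at stage 3. For this gene the fold change on the log2 scale was 0.51 (SE 0.43, FDR 0.45) at stage 1, -1.86 (SE 0.43, FDR 0.030) at stage 2 and -1.41 (SE 0.45, FDR 0.063) at stage 3. Without replicate 2 of 3mlpa at stage 1, the library with the low value in dry seeds, the FDR was 0.0023 at stage 2 and 0.0092 at stage 3, and 4 of 6 cases were called. DESeq2 gave an adjusted p of 0.00182 at stage 2 with all libraries, and a fit of the 6 libraries of that stage alone gave an FDR of 6.4e-06.

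**Figure D3:**
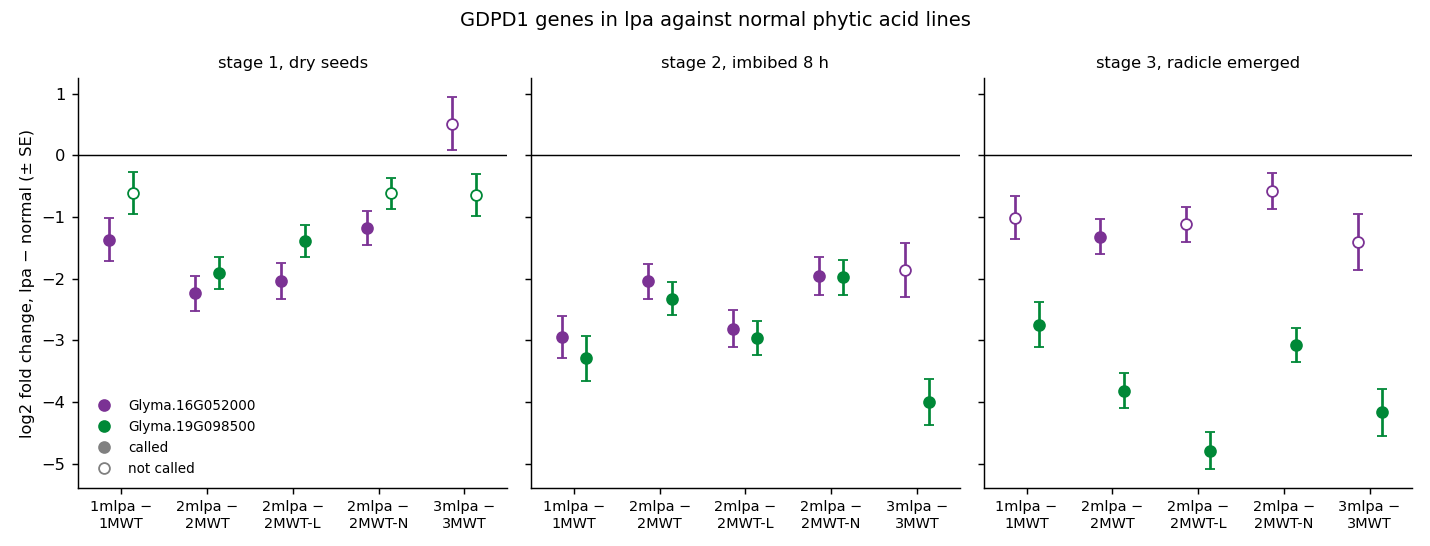
Log2 fold change of lpa against normal lines (± SE) at each stage, with Glyma.16G052000 in purple, Glyma.19G098500 in green and filled points where the call was made. All values of stages 2 and 3 lie below zero. At stage 3 the green points lie between -2.74 and -4.79 and the purple ones between -0.58 and -1.41.

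Over the 3 subsets, 21 of 30 comparisons of an lpa line with a normal line (2 genes, 5 pairs of lines and 3 stages) were called lower and 0 were called higher. In the comparisons of 2mlpa, the share of all genes called lower was 0.992% at stage 1, 0.379% at stage 2 and 0.246% at stage 3 against 2MWT-N. Against 2MWT-L 2.57%, 3.34% and 0.864% of genes were called lower at these stages, and against 2MWT 0.934%, 0.686% and 1.06%. Comparisons of 2mlpa share its libraries, so the 30 are not independent.

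From dry to imbibed seeds the direction depended on the line. Both genes fell in all 3 lpa lines and in 2MWT, which makes 8 of 16 cases. Glyma.19G098500 rose in 1MWT (log2 fold change 1.12, SE 0.34, FDR 0.0069) and in 3MWT (1.54, SE 0.34, FDR 0.00093), and 6 cases were not called. Calls in both directions were common at this step. Of all genes tested, 16.2% were called lower in 1mlpa, 11.2% in 2mlpa, 13.6% in 3mlpa and 17.8% in 2MWT, and 28.8% were called higher in 1MWT and 25.5% in 3MWT. The median of all genes moved by 0.11 to 0.34 on the log2 scale in these comparisons. In the lpa lines the log2 fold change of Glyma.16G052000 was -1.27 in 1mlpa, -1.32 in 2mlpa and -1.56 in 3mlpa, and that of Glyma.19G098500 was -1.56 in 1mlpa, -1.69 in 2mlpa and -1.81 in 3mlpa. In 2MWT it was -1.51 for Glyma.16G052000 and -1.27 for Glyma.19G098500. The values that were not called were 0.31 and 0.81 for Glyma.16G052000 in 1MWT and 3MWT, -0.54 and -0.12 for Glyma.16G052000 and Glyma.19G098500 in 2MWT-L, and -0.54 and -0.33 for these genes in 2MWT-N. The rise in 1MWT was lost without replicate 1 of 1MWT at stage 2 (log2 fold change 0.70, FDR 0.074), the library with the highest value, and with upper-quartile factors (0.87, FDR 0.0252). Leaving out 1 library also ended the calls of Glyma.16G052000 in 1mlpa (FDR 0.037 without replicate 1 at stage 1) and in 3mlpa (FDR 0.056 without replicate 1 at stage 1).

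From imbibed seeds to radicle emergence 7 of 16 cases were called lower and 0 higher. For Glyma.16G052000 the log2 fold change was -2.69 in 1MWT, -1.91 in 2MWT-L, -1.59 in 2MWT-N, -1.77 in 3mlpa and -2.22 in 3MWT. Glyma.19G098500 fell in 2mlpa (-2.06) and in 1MWT (-1.13). Of all genes tested, 10.1% were called lower in 3mlpa, 16.7% in 2mlpa, 14.4% in 1MWT and likewise in 2MWT-N, 14.1% in 2MWT-L and 10.5% in 3MWT. It was not called in 3MWT (-0.46, SE 0.33, FDR 0.32) or in 2MWT-L (-0.24, SE 0.25, FDR 0.47). The fold-change criterion alone kept back Glyma.16G052000 in 2MWT (-0.94, FDR 0.0049) and Glyma.19G098500 in 2MWT-N (-0.96, FDR 0.0051). With RLE factors the calls of Glyma.16G052000 in 2MWT-N (-0.97) and 3mlpa (FDR 0.0123) and of Glyma.19G098500 in 1MWT (FDR 0.0102) were not made. The call in 2MWT-N was made with RLE factors once the near-empty library was left out (-1.55, FDR 0.00013). The difference between the paralogs at this step was not tested. The call in 1MWT for Glyma.19G098500 was kept in 6 of 18 fits that leave out 1 library (largest FDR 0.096, without replicate 1 of 1MWT at stage 2), and that in 3mlpa for Glyma.16G052000 in 13 of 18 (largest FDR 0.028, without replicate 2 of 3mlpa at stage 3).

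**Figure D4:**
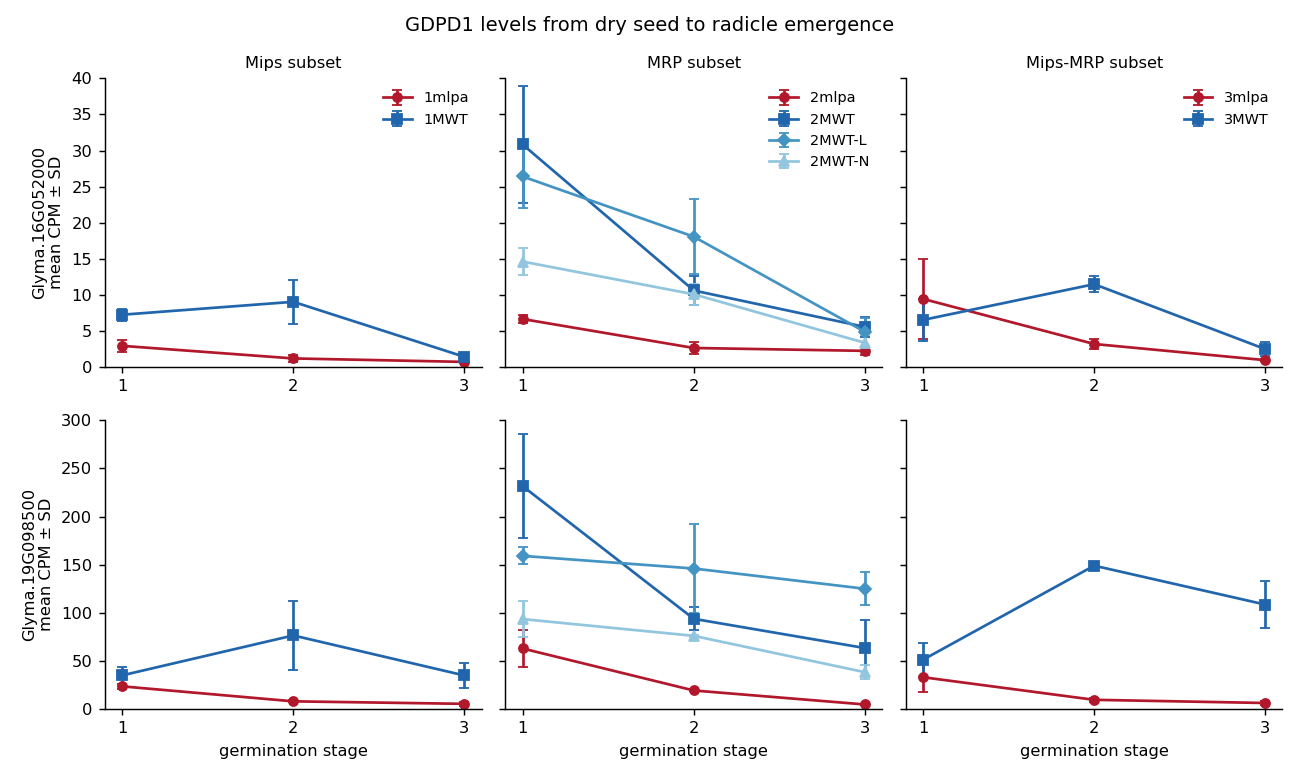
Mean CPM (± SD, n = 3, and n = 2 for 2MWT-N at stage 2) of Glyma.16G052000 (upper row) and Glyma.19G098500 (lower row) at stages 1, 2 and 3, with 1 column for each subset. The 3mlpa line of Glyma.19G098500 runs downward over the stages, while 3MWT stands highest at stage 2 with 149 CPM.

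Whether the difference between lpa and normal seeds itself changed between stages was tested as an interaction in each subset (the MRP subset with the mean of its 3 normal lines). Of 18 cases 4 were called by edgeR (FDR under 0.01), each of Glyma.19G098500 and toward a larger deficit at the later stage. In 1mlpa the change from stage 1 to stage 2 was -2.68 (SE 0.49, FDR 0.0068), against 0.404% of all genes called negative. In 2mlpa the change from stage 1 to stage 3 was -2.59 (SE 0.31, FDR 1.8e-05), against 0.523%. In 3mlpa it was -3.36 (SE 0.49, FDR 0.0089) from stage 1 to stage 2, against 0.0128%, and -3.53 (SE 0.49, FDR 0.00070) from stage 1 to stage 3, against 0.444%. The 2 calls from stage 1 to stage 2 depend on the libraries, and that in 3mlpa also on the block (FDR 0.0251 with the replicate number as a block). The call in 1mlpa was kept in 8 of 18 fits that leave out 1 library and that in 3mlpa in 2 of 18, while both calls from stage 1 to stage 3 were kept in every such fit. With all libraries DESeq2 called 3 cases more. For Glyma.16G052000 it called a larger deficit from stage 1 to stage 2 in 3mlpa (-2.45, adjusted p = 0.0081). For this gene it also called a smaller deficit from stage 2 to stage 3 in 1mlpa (2.00, adjusted p = 0.0060). The remaining case was a change from stage 1 to stage 3 of Glyma.19G098500 in 1mlpa. That change was -2.13 (SE 0.49, FDR 0.0114) in the edgeR fit. It was also called without the filter on low counts (FDR 0.0020) and with upper-quartile factors (FDR 0.0094). From stage 2 to stage 3 the change in 1mlpa was 1.94 (SE 0.48, FDR 0.071) for Glyma.16G052000 and 0.55 (SE 0.48, FDR 0.75) for Glyma.19G098500. In 2mlpa it was 1.26 (SE 0.34, FDR 0.046) for Glyma.16G052000 and -1.47 (SE 0.31, FDR 0.0124) for Glyma.19G098500. The edgeR fit called none of these. The last value stayed uncalled in 32 of 36 fits that leave out 1 library, but was called without the filter on low counts (FDR 0.0044). From stage 1 to stage 2 in 2mlpa, Glyma.19G098500 changed by -1.12 (SE 0.30, FDR 0.021). Without the near-empty library DESeq2 called both changes of this gene in 2mlpa (adjusted p = 0.00078 and 0.0054). For Glyma.16G052000 in 3mlpa the changes from stage 1 were -2.37 to stage 2 (SE 0.61, FDR 0.067) and -1.92 to stage 3 (SE 0.63, FDR 0.073). Both were called without replicate 2 of 3mlpa at stage 1 (FDR 0.0024 and 0.0028).

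The Mips and Mips-MRP subsets share the mips1 mutation and 1 count table, so their lpa effects were compared in a joint fit. A difference was called in 0 of 6 cases by edgeR and in 0 by DESeq2, and edgeR called one in 5.31% of all genes in dry seeds, 0.481% in imbibed seeds and 0.266% after radicle emergence. At an unadjusted p under 0.05 edgeR gave 2 cases, Glyma.16G052000 at stage 1 (difference -1.84, SE 0.58, FDR 0.031) and Glyma.19G098500 at stage 3 (1.42, SE 0.50, FDR 0.31). Without replicate 2 of 3mlpa at stage 1 the first of these was called (FDR 0.0014).

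The paralogs did not keep a fixed ratio. Per kb of exon, Glyma.19G098500 was the more abundant in each of the 71 libraries of usual depth, at 3.19 ± 0.496 CPM per kb against 1.21 ± 0.324 CPM per kb of Glyma.16G052000 where the genes were closest (2mlpa at stage 3) and at 77.1 ± 17.7 CPM per kb against 1.34 ± 0.525 CPM per kb where they were farthest apart (3MWT at stage 3). As a geometric mean of 3 libraries (2 for 2MWT-N at stage 2), the excess of Glyma.19G098500 over Glyma.16G052000 at stage 1 was 10.6-fold in 1mlpa and 6.15-fold in 1MWT, 11.98-fold in 2mlpa and 7.91-fold to 9.86-fold in its normal lines, and 4.93-fold in 3mlpa and 10.5-fold in 3MWT. At stage 2 it was 9.41-fold in 1mlpa and 10.6-fold in 1MWT, 9.71-fold in 2mlpa and 9.88-fold to 11.6-fold in its normal lines, and 3.82-fold in 3mlpa and 16.99-fold in 3MWT. At stage 3 it was 9.23-fold in 1mlpa and 31.2-fold in 1MWT, 2.69-fold in 2mlpa and 14.2-fold to 34.97-fold in its normal lines, and 8.31-fold in 3mlpa and 59.4-fold in 3MWT. After radicle emergence, Glyma.16G052000 gave 27.4 ± 7.16% of the pair's reads per kb in 2mlpa and 1.71 ± 0.583% in 3MWT.

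The log2 ratio of Glyma.16G052000 to Glyma.19G098500 within a library was compared between lpa and normal libraries by an exact permutation test (two-sided), in 9 tests. At stage 3 the ratio was higher in the lpa line in all 3 subsets, by 1.76 in 1mlpa (exact p = 0.1, n = 3 and 3), by 2.87 in 2mlpa (exact p = 0.0091, n = 3 and 9) and by 2.84 in 3mlpa (exact p = 0.1, n = 3 and 3). The 3 lpa libraries lay outside the range of the normal ones in each of these exact tests. With 3 against 3 libraries p cannot go below 0.1, and with 3 against 9 not below 0.0091, so these are the smallest values the design allows. Adjusted over the 9 exact tests by the Benjamini-Hochberg method, the value of 2mlpa was 0.082, so no test passed 0.05. At stage 2 the difference was 0.18 in 1mlpa (exact p = 0.6), 0.14 in 2mlpa (exact p = 0.41) and 2.15 in 3mlpa (exact p = 0.1). At stage 1 it was -0.78 in 1mlpa (exact p = 0.1), -0.47 in 2mlpa (exact p = 0.1) and 1.08 in 3mlpa (exact p = 0.2).

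**Figure D5:**
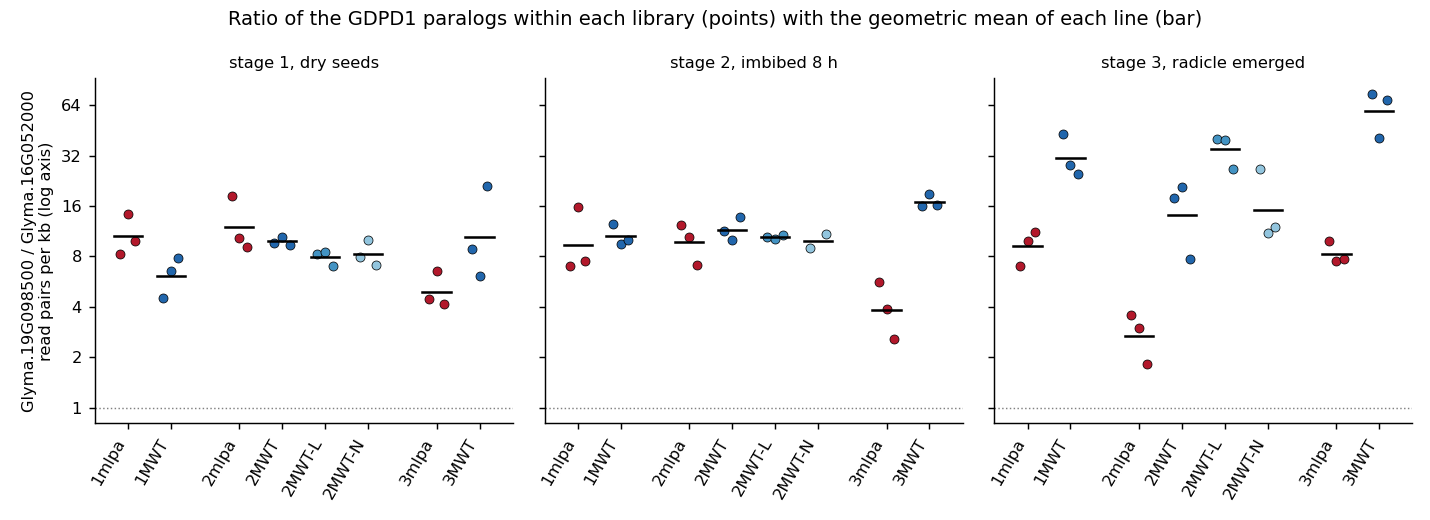
Read pairs per kb of Glyma.19G098500 over those of Glyma.16G052000 on a log axis in each library (points) with the geometric mean of the line (bar), by stage, lpa lines in red and normal lines in blue shades. At stage 3 the bars of 1mlpa, 2mlpa and 3mlpa stand at 9.23, 2.69 and 8.31, below those of their normal lines at 14.2 to 59.4.

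The likeness of other genes to each member was described by Pearson's r over the 24 means of line and stage, on log2(CPM + 0.5), among 26443 genes with a mean over 1 CPM. These points share lines, stages and the scaling of the libraries, so r is given without a test. Over these means the paralogs had r = 0.823 with each other, which placed Glyma.16G052000 second of all genes for Glyma.19G098500, behind Glyma.19G064200 (r = 0.84). For Glyma.16G052000 the highest values were those of Glyma.06G297000 (r = 0.866) and Glyma.07G267000 (r = 0.851), and Glyma.19G098500 came at rank 10. With the mean over lines of each stage removed, so that only differences between lines within a stage count, the paralogs had r = 0.839. The highest values were then those of Glyma.09G263300 (r = 0.881) and Glyma.19G148100 (r = 0.851) for Glyma.16G052000, and of Glyma.11G082500 and Glyma.04G147600 (r = 0.861 each) for Glyma.19G098500. The annotation used here gives no product name for these identifiers.

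Purple acid phosphatases release phosphate from organic esters, and PAP17 is known in Arabidopsis as a gene induced by phosphate starvation. The 2 PAP17 genes that the study names beside GDPD1, Glyma.05G247900 and Glyma.08G056400, were called lower in lpa seeds in 20 of 20 comparisons at stages 2 and 3. Over the 3 stages, 0.246% to 4.03% of all genes were called lower in such a comparison. The study reported these genes as lower in lpa lines from these same libraries, so the count is not independent evidence. Comparisons of 2mlpa also share its libraries. In dry seeds the PAP17 genes lay near the floor. A library held at most 6 read pairs of Glyma.05G247900 (0 in 14 of 24) and at most 25 of Glyma.08G056400. A call of lower was thus hardly possible for these genes at stage 1, and 0 of 10 were made. From stage 1 to stage 2 they were called higher in 11 of 16 cases and lower in 0, at a step where 17.7% to 29.0% of all genes were called higher in a line, and the GDPD1 genes were called lower in 8 and higher in 2. With stage means removed, Glyma.08G056400 had r = 0.819 with Glyma.19G098500 (rank 19) and 0.58 with Glyma.16G052000 (rank 1181), and Glyma.05G247900 had 0.814 (rank 21) and 0.569 (rank 1280), so the PAP17 pattern was nearer to that of the chromosome 19 gene. In 3mlpa at stage 2, Glyma.08G056400 averaged 0.462 ± 0.225 CPM, against 12.04 ± 1.5002 CPM in 3MWT (SD, n = 3 each), and Glyma.05G247900 averaged 0.257 ± 0.249 CPM, against 10.4 ± 0.347 CPM. In 2mlpa at stage 2, Glyma.05G247900 had 0 counts in all 3 libraries, which is at least 93.4-fold lower than 2MWT-N, at least 229-fold lower than 2MWT-L and at least 72.9-fold lower than 2MWT (floor of 3 counts over the group, 0.034 CPM of the unscaled totals, against 3.18, 7.80 and 2.48 CPM). The C2H2 zinc finger gene Glyma.08G092300, also named by the study, was called lower in 1 of 15 comparisons and higher in 0. The call lay in the Mips subset, and 0.246% to 4.03% of all genes were called lower in a comparison. The gene had 0 to 54 read pairs in a library at stage 1, 20 to 91 at stage 2 and 26 to 116 at stage 3. Such low counts limit what the test can call. With stage means removed, the r of Glyma.08G092300 was 0.315 with Glyma.19G098500 and 0.235 with Glyma.16G052000. Over the 24 means of line and stage it was 0.097 with Glyma.19G098500 and -0.116 with Glyma.16G052000.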

How the data were processed

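Messenger RNA of 72 seed libraries (8 lines, 3 stages, 3 replicates of 10 seeds) was sequenced as read pairs. Per the study's methods and the labels, the authors used Skewer for trimming, STAR 2.5.2b for alignment to Wm82.a2.v1 and featureCounts for counting read pairs over exons by gene, and their own tests used DESeq2 1.22.2 in R 3.5.1. Strand was ignored, and the counts leave out pairs with more than 1 genomic position or gene. The deposited values are raw gene counts, in read pairs, in 2 tables (the MRP subset, and the Mips and Mips-MRP subsets), and 0 columns were left unused. The Mips libraries were assigned by the labelled MIPS1 genotype and the series' design text, and the comparison would be of cultivars if the titles mean the parents. No further check of a line by its mutation was made, since the mutations are point mutations that counts do not show.

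Quasi-likelihood F tests with TMM scaling were run with edgeR 4.0.16 (limma 3.58.1, R 4.3.3). Each subset had its own fit, in which every combination of line and stage was a group, without a block. Tests took in genes whose TMM-normalized count averaged over 10 (31682 in the Mips, 31363 in the MRP and 31307 in the Mips-MRP subset, and 31615 in the joint fit of the Mips and Mips-MRP libraries), with Benjamini-Hochberg adjustment over all of them. A call needed an FDR under 0.01 together with a log2 fold change beyond 1 in either direction, after the study's definition, and for interactions an FDR under 0.01. The SE of a log2 fold change is that value over the root of F. CPM come from 1 TMM scaling of the 71 libraries of usual depth. The shares of all genes whose replicates did not overlap use the TMM factors of each subset's own fit instead. The paralog ratio uses counts per kb of exon with 0.5 added to each count, and its exact permutation tests were run in scipy 1.17.1. The labels call the replicates samples of 10 seeds of a line, so p values measure the spread between such samples and not between independent lines. The scripts were tested on simulated data.

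Named genes are the members, the PAP17 and C2H2 genes that the study names beside them, and the genes with the highest r to a member, of which the first 2 are printed. The members and these lists were chosen with earlier results of these data known. Lists of phosphate and seed tissue genes by product name, promoter motifs and sequences were not used here. The alternatives were DESeq2 1.42.0, upper-quartile or RLE factors, filterByExpr or no filter, calls at an FDR of 0.05 or without the fold-change criterion, the replicate number as a block, the libraries of 1 stage alone, the near-empty library left out, other added counts for the ratio, and each library left out in turn.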

Additional observations from a re-analysis of the deposited data

Results flagged for a closer look

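Effects under the same contrast differed between stages or between genetic backgrounds, by a test of the difference itself, in 7 cases. The deficit of Glyma.19G098500 in lpa seeds was larger at stage 2 than in dry seeds in 1mlpa (difference of log2 fold changes -2.68) and in 3mlpa (-3.36). It was larger at stage 3 than in dry seeds in 2mlpa (-2.59) and in 3mlpa (-3.53). The change with mrp-n differed between seeds with and without mrp-l by -2.72 for Glyma.16G052000 at stage 2, and for Glyma.19G098500 by -2.61 at stage 2 and -4.05 at stage 3. Over the alternatives the adjusted p of the change from stage 1 to stage 2 lay between 1.4e-05 and 0.0211 in 1mlpa and between 5.5e-08 and 0.0375 in 3mlpa, and that of the change from stage 1 to stage 3 between 4.3e-13 and 0.00045 in 2mlpa and between 1.9e-09 and 0.0037 in 3mlpa.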

How the results depend on the processing

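With the FDR under 0.05, calls numbered 2 of 12 in the lines with 1 mrp mutation (1 at 0.01), 8 of 18 for the lpa effect between stages (4 at 0.01) and 1 of 6 for the Mips subset against the Mips-MRP subset (0 at 0.01). DESeq2 made 7 calls of the effect between stages, and 2 in the lines with 1 mrp mutation once the near-empty library was left out. With the near-empty library kept, RLE factors gave 2 calls in those lines and 4 of 16 from stage 2 to stage 3 (7 with TMM). Of the calls lost from stage 2 to stage 3, those in 3mlpa and 1MWT lie in fits that do not hold the near-empty library. Without that library, RLE factors made the call of Glyma.16G052000 in 2MWT-N from stage 2 to stage 3 (FDR 0.00013). With each library left out in turn, calls ranged from 2 to 4 for 3mlpa, 0 to 2 for the lines with 1 mrp mutation and 0 to 1 for the Mips against the Mips-MRP subset, each without the libraries named in the report. The other counts ranged from 3 to 4 for 1mlpa and for 2mlpa, 9 to 10 from stage 1 to stage 2, 6 to 9 from stage 2 to stage 3, 3 to 6 between stages and 3 to 3 for the mrp interaction, all within 1.5 times the count reported. The paralog ratio at stage 2 changed sign, from -0.0392 to 0.547 in the Mips subset and from -0.0835 to 0.315 in the MRP subset.

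With the near-empty library kept, RLE factors and DESeq2 turned the sign of 4 values, none of them called: the mrp interaction of Glyma.19G098500 at stage 1 (0.061 with both), Glyma.16G052000 in 2mlpa from stage 2 to stage 3 (0.48 with both), and Glyma.19G098500 in 2MWT-L from stage 1 to stage 2 (0.17 with both) and from stage 2 to stage 3 (0.27 with both). Without that library, an alternative chosen after seeing the data, none of them changed sign. Leaving out 1 library also turned the sign of uncalled values, with ranges of -0.38 to 0.0082 for Glyma.16G052000 in 2MWT-L at stage 1, -0.25 to 0.068 for it in 2MWT-N at stage 2, -0.42 to 0.045 for it in 2mlpa from stage 2 to stage 3, -0.37 to 0.070 for the mrp interaction of Glyma.19G098500 at stage 1, -0.41 to 0.0065 for it in 2MWT-L from stage 1 to stage 2 and -0.36 to 0.056 from stage 2 to stage 3, -0.38 to 0.0055 for its 3mlpa effect from stage 2 to stage 3, and -0.32 to 0.33 for the Mips against the Mips-MRP subset at stage 1. The cause was not tested.

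The replicate numbers did not pair the samples of the study as a whole, since 18 of 44 same-numbered pairs had a correlation of deviations over 0.1 and 9 one under -0.1 (range -0.418 to 0.359). In 2 of 15 comparisons (1mlpa with 1MWT at stage 1, 2mlpa with 2MWT at stage 3) all 3 pairs were over 0.1, and the block changed no call there. With the replicate block the lines with 1 mrp mutation had 2 calls, and the counts were 9 from stage 1 to stage 2, 6 from stage 2 to stage 3 and 3 between stages, and as reported otherwise. The block added the calls of Glyma.16G052000 in 2MWT-N at stage 1 and in 2mlpa against 2MWT-L at stage 3, and ended those of Glyma.16G052000 in 3mlpa from stage 1 to stage 2 (FDR 0.0133) and from stage 2 to stage 3 (FDR 0.0110) and of the 3mlpa effect of Glyma.19G098500 from stage 1 to stage 2. Upper-quartile factors could not be fitted in the MRP subset with the near-empty library and were run there without it. Counts of PAP17, C2H2 and neighbouring genes come from the reported fit alone.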
